A study of Mus musculus with 2 samples.

Results

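The epithelial tumor of section 2 was a set of 688 spots rich in mammary epithelial genes, in a cerebellar section that carried a transplanted breast tumor. Of the 4017 spots under tissue in section 2, and the 7423 in both sections of the series, these 688 were chosen by their measured values: at least 20000 UMIs (unique molecular identifiers, each counting 1 captured probe molecule) and at least 5000 CPM (counts per 1000000 UMIs of the spot) for the sum of Epcam, Krt7 and Krt8. No spot of section 1 met that rule. The 5 members nearest to the limit held 5006 to 5030.3 CPM, and the 5 deep spots just outside it held 4932 to 4985 CPM. Another 49 spots passed the epithelial limit with fewer than 20000 UMIs and were left out. The members were set against 2015 spots of neural tissue in the same section, chosen by at least 2000 UMIs, an epithelial sum below 300 CPM, and at least 2000 CPM for the sum of Mbp and Snap25.

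Both sections came from untreated mice whose cerebellum had been injected with HP organoids, grown from mouse mammary tumors with both HER2 V777L and PIK3CA H1047R. Titles name the organoids HP-F1 for section 1 and HP-B6 for section 2, both with Cre, whereas the cell line field reads B6-HP for both, and the labels do not settle whether 1 or more organoid lines were used. The organoids were clones selected for a luciferase label and were placed in the brain by stereotactic injection, which leaves out the spread through the blood. The hosts in the study's methods were syngeneic C57BL/6 mice of 5 months with their own immune cells, no sex is given for these 2 mice, and the labels place both sections in 1 group, each as 1 sample. Transcripts were read by probe pairs against mouse genes on fixed sections (Visium CytAssist), so each spot covers a patch of tissue with several cells or parts of cells, and all 19465 genes listed are mouse genes.

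Mammary epithelium has an inner luminal layer, marked by simple keratins such as Krt8 and Krt19, and an outer basal layer, marked by Krt5, Krt14 and Krt17. Its cells are joined by E-cadherin, claudins and desmosomes, which are usually lost when epithelial cells take on a mesenchymal state. The cerebellum has no such epithelium, since its parenchyma is made of granule and Purkinje neurons, astrocytes, oligodendrocytes and microglia, and the choroid plexus is of another epithelial kind.

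The 688 spots formed 8 connected pieces on the hexagonal spot array. The largest piece held 623 spots, the next 58, and the remaining 6 pieces held 7 spots together. The 2 main pieces lay 7 grid steps apart across a cleft without tissue, and the shortest path between them through tissue spots took 75 steps. Of the members, 239 touched a tissue spot outside the set and 449 were interior, the deepest lying 7 steps from the nearest other tissue spot. A member that faced only the cleft or the edge of the captured area was thus counted as interior. Both main pieces reached row 0, the edge of the captured area, and tissue beyond it was not measured.

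**Figure D1:**
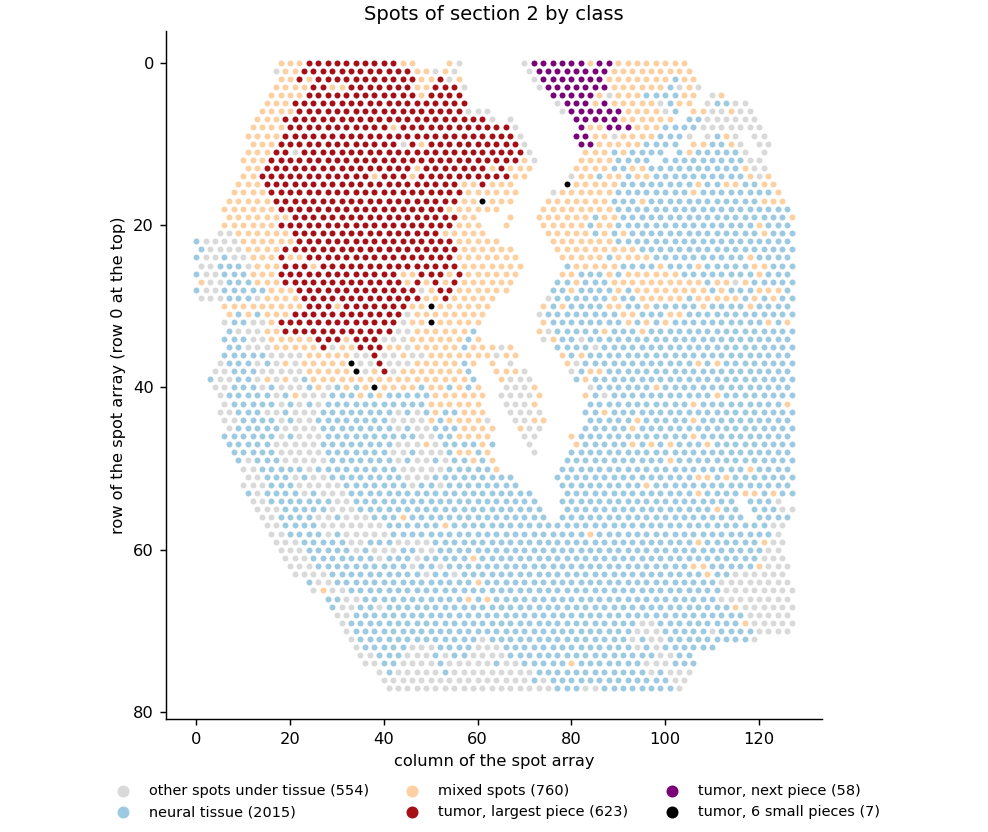
Map of the 4017 spots of section 2 by array column and row, colored by class. The 688 tumor spots form a piece of 623 spots at the upper left, a piece of 58 spots across the tissue-free cleft and 6 small pieces, and the 760 mixed spots (2000 UMIs or more, epithelial sum from 300 to below 5000 CPM) border both main pieces and are also scattered through the neural tissue.

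The tumor spots were 17.1% of the spots of section 2 and held 41.6% of its UMIs. A member held 20095 UMIs at the lowest, 42416 at the median and 106440 at the highest, against 2067, 10185 and 50195 in the neural spots. In all, 29927022 UMIs were summed over the tumor and 23569403 over the neural tissue. Section 1 held 63986887 UMIs and section 2 held 71878333, and the 3096 spot barcodes found in both sections mark array positions and not shared cells.

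The epithelial sum, which the rule set, ran from 5006 to 18130 CPM over the members with a median of 7509 CPM, while the sum of Mbp and Snap25 had a median of 111 CPM and reached 3368 CPM in the highest spot. As a check of the label, E-cadherin (Cdh1), which the rule did not use, was detected in all 688 spots, from 83.4 to 1114 CPM. In section 1 no spot of 20000 or more UMIs with little neural signal exceeded 142 CPM for the epithelial sum.

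**Figure D2:**
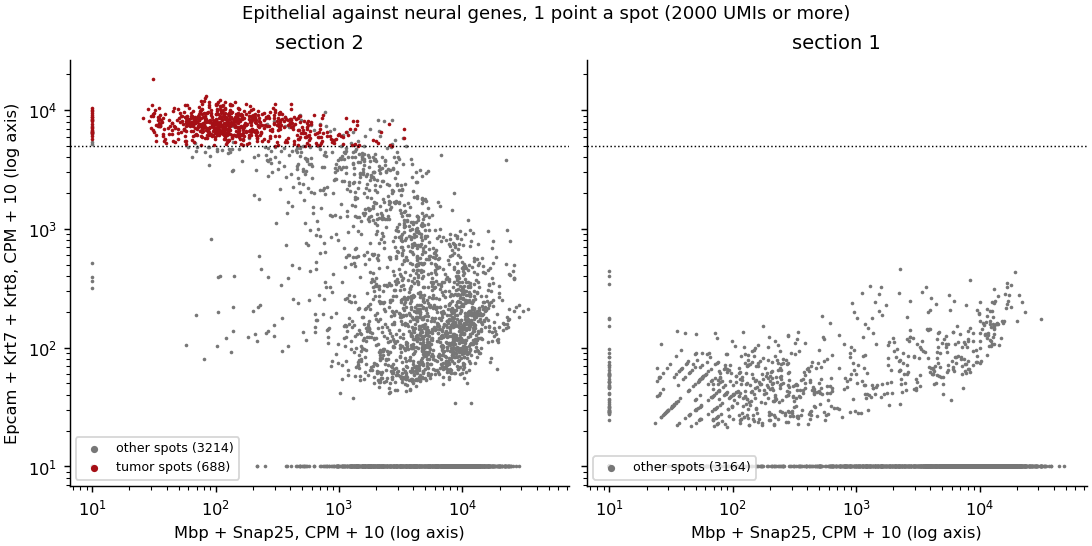
Sum of Epcam, Krt7 and Krt8 against the sum of Mbp and Snap25, both in CPM + 10 on log axes, for each spot of 2000 or more UMIs in section 2 (left) and section 1 (right), with a dotted line at the limit of 5000 CPM. Red points are the 688 members, which lie to the left of most other spots of section 2, and no spot of section 1 comes near the line.

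The 3 genes of the rule encode an epithelial adhesion molecule (Epcam, ENSMUSG00000045394), a simple epithelial keratin of ducts (Krt7, ENSMUSG00000023039) and a luminal keratin (Krt8, ENSMUSG00000049382). Their upstream sequences are shown because these genes define the tumor, with the E-box CACCTG, read on either strand, in capitals. This motif is known as a target of the repressors Snai1, Snai2, Zeb1 and Zeb2, and the RefSeq windows of build GRCm38.p6 cover the 250 bases before the gene start, 5′ to 3′ on the strand of the gene. The window of Epcam is chr17:87635729-87635978 on the plus strand, that of Krt7 chr15:101412153-101412402 on the plus strand, and that of Krt8 chr15:102004343-102004592 on the minus strand.
Epcam: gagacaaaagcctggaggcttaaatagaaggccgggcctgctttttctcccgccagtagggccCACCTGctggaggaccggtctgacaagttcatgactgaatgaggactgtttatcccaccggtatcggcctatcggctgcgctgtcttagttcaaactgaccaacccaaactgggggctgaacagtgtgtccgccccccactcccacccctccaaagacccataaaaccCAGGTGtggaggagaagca
Krt7: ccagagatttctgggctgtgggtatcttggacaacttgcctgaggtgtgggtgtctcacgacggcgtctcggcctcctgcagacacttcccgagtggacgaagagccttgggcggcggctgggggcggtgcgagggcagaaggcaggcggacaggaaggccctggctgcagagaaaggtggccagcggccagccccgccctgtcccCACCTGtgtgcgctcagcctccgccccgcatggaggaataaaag
Krt8: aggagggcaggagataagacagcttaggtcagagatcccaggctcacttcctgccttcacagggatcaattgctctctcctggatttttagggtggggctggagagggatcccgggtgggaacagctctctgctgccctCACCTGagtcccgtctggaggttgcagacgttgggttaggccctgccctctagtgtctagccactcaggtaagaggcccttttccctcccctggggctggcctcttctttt
The Epcam window held 2 matches, and the windows of Krt7 and Krt8 held 1 each. The motif occurred in 17.1% of the 27025 windows in the table, in 6 of the 14 windows found for 25 junction genes (Cldn4, Tjp3, F11r, Lsr, Spint2 and Crb3) and in 6 of the 9 windows found for 18 keratins. An AP-1 motif, TGANTCA on either strand, occurred in 6.87% of all windows and in 3 of the 14, and the Grainyhead motif AACCNGTT in 1.71% of all and in 1 of the 14. The factors themselves were counted at 50.6 CPM in the tumor and 4.96 in neural tissue for Snai2, 21.4 and 3.95 for Snai1, 53.7 and 127 for Zeb2, and 11.7 and 62 for Zeb1. Matches are a description of the letters, and binding was not measured.

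Secreted, adhesive and keratin genes were among the genes with the most UMIs in the tumor, an order that reflects probe yield as well as transcript level. Wfdc18, a whey acidic protein family gene of the mammary gland, had the most UMIs, at 8689.7 CPM (exact Poisson 95% interval 8656 to 8723) against 103 CPM in neural tissue. Over the members it ran from 111 to 37537 CPM with a median of 8683, and over the neural spots from 0 to 2672 CPM with a median of 59.6, so the lowest tumor spots overlapped the neural range. The matrix glycoprotein thrombospondin 1 (Thbs1) followed at 5617 CPM against 55.8, and the phospholipid-binding protein annexin A1 (Anxa1) at 5188 CPM against 51.7. The other genes among the 10 highest counts were Tpt1, Eef1a1 and Tmsb4x, which most cells express, Krt7, the calcium-binding protein S100a6 (3986 CPM), the gap junction protein Gja1 (3152 CPM) and the matrix protein tenascin C (Tnc, 3006 CPM).

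Of 19061 genes with at least 20 UMIs in both groups together, 1038 (5.45%) were at least 4-fold higher in the tumor and 2211 (11.6%) at least 4-fold lower, on CPM + 0.5. The median log2 fold of all these genes was -0.37. Counts in the gene lists below are to be read beside these shares, and 1 or 2 genes of a short list can be near them. Scaling by TMM factors raised log2 folds by up to 0.30 and their median to -0.13, so that a value between -0.30 and 0 can turn sign. Because the section is 1 sample and the members were picked by their values, no test was made, and folds are descriptions whose intervals cover counting error alone. A higher summed level can come from more cells of a type in a spot or more RNA per cell, which cannot be told apart. Because probes differ in yield, counts of different genes do not rank their transcripts: Gapdh and Pcna, a glycolytic enzyme and a replication clamp of dividing cells, stood at 1.74 and 1.4 CPM in the tumor.

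The 15 largest folds among genes of at least 100 CPM belonged to Krt7, Epcam, Thbs1, Cldn7, Anxa1, Krt19, Wfdc2, Tfcp2l1, Wfdc18, Tnc, Dynap, Ly6d, Gabrp, Krt8 and Pkp1, with log2 folds from 7.26 (Krt7) to 6.24 (Pkp1). The rule chose both groups on Krt7, Epcam and Krt8, so their large folds were set in advance. The claudin of tight junctions Cldn7 stood at 1268 CPM against 12.2 (log2 fold 6.64, with an exact counting interval of 6.53 to 6.87 for the ratio without the pseudocount), the epithelial transcription factor Tfcp2l1 at 959 against 10.5, and Gabrp, a GABA-A receptor subunit found in mammary epithelium, at 952 against 12 CPM. For these 15 genes, chosen by their folds and with the genes of the rule among them, the neural level was 0.641% to 1.28% of the tumor level. It was 0.618% to 1.24% over the 1965 neural spots at least 5 steps from any member. The source of their UMIs in neural spots was not tested.

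The 25 junction and adhesion genes were almost all high. All were measured and tested, 23 were at least 4-fold higher, none was lower, and their median log2 fold was 4.35 beside -0.37 over all genes. Cldn4 stood at 909.8 CPM against 13.9, Cldn3 at 659 against 12.3, Cdh1 at 431 against 6.28 and the desmosomal plakophilin Pkp1 at 841 against 10.6. The protease inhibitor Spint2 reached 892 CPM. The genes below the limit were Jup, a plakoglobin also made in the brain (647 against 166 CPM, log2 fold 1.96), and occludin (Ocln, 74 against 18.2, just under 4-fold), and both passed it under TMM factors.

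Keratins of both mammary layers were present in the same tumor spots. Of 18 keratins listed, 17 were measured and 16 tested, and 11 were at least 4-fold higher with none lower (median log2 fold 4.59), Krt7 and Krt8 being among the 11 through the rule. The luminal keratins Krt8 and Krt19 stood at 1664 and 296 CPM against 21.4 and 2.84 in neural tissue. The basal keratins Krt14, Krt17 and Krt5 stood at 923, 725 and 129.9 CPM against 13.5, 9.93 and 5.05, and the wound keratin Krt6a at 159 against 2.12. Krt14 was counted in every member, from 272 to 4315 CPM with a median of 793, and Krt8 from 501 to 4485 with a median of 1571. Across the 688 spots, which share 1 section and come from overlapping neighborhoods, Krt14 went with Krt6a (Spearman rho 0.50), Krt5 (0.47) and Krt17 (0.40). It did not go with Krt8 (-0.09) or Krt7 (-0.11), while Krt8 and Krt7, both genes of the rule, went together (0.43). Krt1, Krt4 and Krt13, keratins of stratified surfaces, stood at 0.769, 2.37 and 2.67 CPM.

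Transcription factors and splicing factors of epithelia were also high. Of 20 such regulators, 15 were at least 4-fold higher and none lower (median log2 fold 3.09). Tfcp2l1, the ETS factors Ehf (766 CPM against 10.7) and Elf3 (203 against 4.67), the splicing factor Esrp1 (376 against 6.02) and the Grainyhead factor Grhl2 (157 against 4.79) led them. The alveolar factor Elf5 stood at 2.07 against 1.61 CPM.

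Luminal lineage genes were mixed. Of 20 luminal genes, 9 were at least 4-fold higher and 2 lower, Sox10 (3.04 against 35.8 CPM), also a gene of oligodendrocytes, and Cited1 (3.34 against 15.8), which fell short under TMM factors. Among the higher genes were the receptor Kit at 388 CPM against 83.8, the retinaldehyde dehydrogenase Aldh1a3 at 338 against 9.46, Ly6d at 710.0 against 8.53 and Sox9 at 759 against 118. The luminal factor Gata3 stood at 71.4 against 6.07 CPM and Foxa1 at 31.9 against 1.91. The hormone receptors Esr1 and Pgr stood at 15.4 and 18.2 CPM against 5.94 and 9.76, and the prolactin receptor Prlr at 3.31 against 4.29, so none of these 3 passed 4-fold.

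Secretory genes of the gland were mixed. Of 20 genes listed, 19 were measured and 18 tested, 6 were at least 4-fold higher, 2 lower and 10 between (median log2 fold 0.27). Besides Wfdc18, the leukocyte protease inhibitor Slpi stood at 1162 CPM against 17.5, Wfdc2 at 939 against 10.1, the iron-binding lactoferrin (Ltf) at 706 against 9.46, and kappa-casein (Csn3) at 125 against 3.01. Lipocalin 2 (Lcn2) was counted at 1056 CPM in the tumor and at 543 in neural tissue. Beta-casein (Csn2) stood at 1.07 CPM, Wap at 1 and alpha-lactalbumin (Lalba) at 1.84, none above its neural level by 4-fold.

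Among 20 basal and myoepithelial genes, 12 were at least 4-fold higher and none lower. Apart from keratins, these included the hemidesmosomal integrin Itgb4 (608 CPM against 46.1), P-cadherin Cdh3 (115 against 5.18) and the basal factor Trp63 (31.8 against 5.69). The contractile genes of myoepithelium differed among themselves, with Acta2 at 55.6 CPM against 8.1, Cnn1 at 2.97 against 3.22 and Myh11 at 1.04 against 3.01. Of 23 squamous and wound genes tested, 6 were at least 4-fold higher, among them S100a14 (328 against 7.98 CPM). The 2 lower genes are a share near the 11.6% over all genes, with the injury gene Sprr1a at 21.1 CPM in the tumor and 194 in neural tissue. By the median of per-spot CPM the log2 fold of Sprr1a was 0.

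Among genes of the HER family, Erbb3, the partner receptor with little kinase activity of its own, stood at 126 CPM against 25 in neural tissue. Mouse Erbb2 stood at 52.1 against 5.52 CPM (log2 fold 3.13, counting interval 2.98 to 3.51 without the pseudocount), Egfr at 26 against 11.5, and Erbb4, a neuronal receptor as well, at 2.14 against 39.5. Over the members Erbb2 ran from 0 to 229.9 CPM with a median of 48. Whether the mouse probes of Erbb2 and Pik3ca also bind the introduced HER2 and PIK3CA transcripts is not given in the sources used here. Of the ligands, amphiregulin (Areg) stood at 64.8 against 3.9 CPM, betacellulin (Btc) at 22 against 2.55, and neuregulin 1 (Nrg1) at 2.67 against 80.1. Over the 16 genes of the family, 6 were at least 4-fold higher (3 with a pseudocount of 5 CPM) and 4 lower.

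The PI3K-AKT genes were close to their neural levels, with 1 of 21 at least 4-fold higher, none lower and a median log2 fold of 0.05. Pik3ca stood at 118 CPM against 114 and Akt1 at 411 against 233. Of 16 MAPK response genes, 7 were at least 4-fold higher and 1 lower. These were led by the ERK phosphatase Dusp6 (443 against 53.6 CPM), Ier3 (269 against 41.4), Phlda1 (268 against 38.9), Spry1 (262 against 36.2) and Myc (219 against 17.1).

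The cell cycle inhibitor locus stood out within the p53 list. Cdkn2a, which encodes p16INK4a and p19ARF, was counted at 614 CPM against 11.2, in every member and from 125 to 1199.9 CPM, and its neighbor Cdkn2b at 235 against 6.79. These were the only 2 of 16 genes of the list at least 4-fold higher, and none was lower. Trp53 itself stood at 13.1 CPM against 26.3, and its targets Cdkn1a and Mdm2 at 61.5 and 75.2 against 52.9 and 58.2. Proliferation genes were high beside this, with 20 of 28 at least 4-fold higher and none lower (median log2 fold 2.55), a count that was 10 with a pseudocount of 5 CPM, which weighs on genes of low level. Ccnd1, the cyclin of G1, stood at 598 CPM against 80.4, and Mki67 at 151 against 13.1, from 0 to 514 over the members with 20 spots at 0. Across the members Cdkn2a and Mki67 were nearly unrelated (Spearman rho 0.06), a value that the few Mki67 UMIs per spot can lower.

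Genes listed for the mesenchymal transition, not all of them mesenchymal markers, were mixed, with more of them higher than lower. Of 19 genes of the list, 18 were measured, 8 were at least 4-fold higher and 1 lower. Their median log2 fold was 1.90 beside -0.37 over all genes. Fibronectin (Fn1) stood at 2701 CPM against 159, the membrane protease Mmp14 at 489 against 38.1 and the integrin Itgb6 at 30.6 against 2.08. Snai2 and Snai1 stood at 50.6 and 21.4 CPM against 4.96 and 3.95, and Twist1 at 16.2 against 2.21. Snai1 and Twist1 fell short of 4-fold with a pseudocount of 5 CPM (log2 fold 1.56 each), and Snai1 also with an epithelial limit of 10000 CPM (1.33). Vimentin (Vim), also made by glia, stood at 958 against 563, N-cadherin (Cdh2) at 30.7 against 57.4, and Zeb1 at 11.7 against 62.

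Basement membrane genes and their integrins were widely high, with 15 of 21 at least 4-fold higher and 1 lower. Lama5 stood at 363 CPM against 15, Hspg2 (perlecan) at 266 against 13.5, Col4a1 at 321 against 30 and Itgb1 at 603 against 92.1. Of the 22 stromal matrix genes, 9 were at least 4-fold higher and 2 lower, with periostin (Postn) at 204 CPM against 3.52, Col1a1 at 156 against 15.7 and Dcn, a fibroblast proteoglycan, at 37.3 against 19.5. Of 19 proteases and inhibitors, 12 were at least 4-fold higher and none lower, among them the urokinase Plau (144 against 8.44 CPM), its receptor Plaur (96.2 against 12) and maspin (Serpinb5, 105 against 2.08). Of 15 annexin and S100 genes, 9 were at least 4-fold higher, with Anxa3 at 2386 CPM against 87.4.

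**Figure D3:**
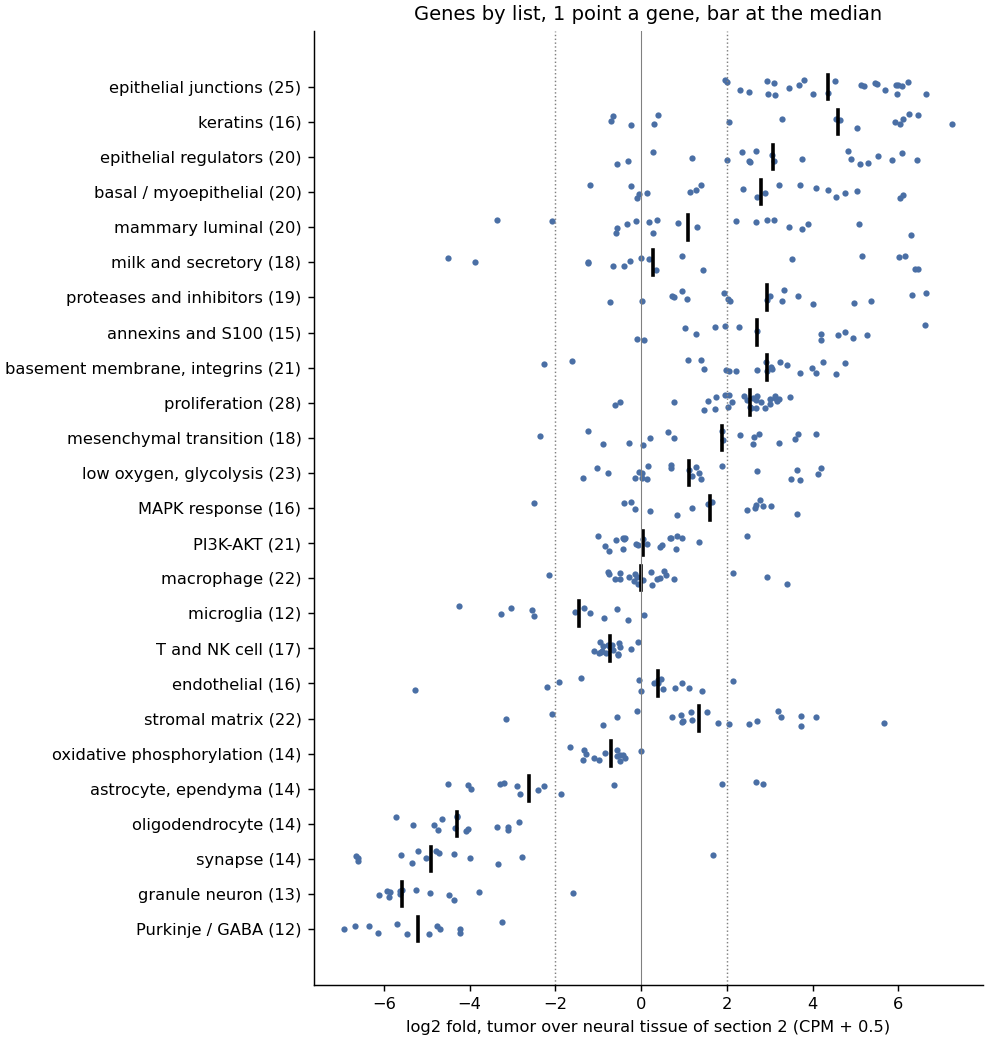
Log2 fold of CPM + 0.5, tumor over neural tissue of section 2, for the tested genes of 25 lists (1 point a gene, number of genes in parentheses, black bar at the list's median, dotted lines at 4-fold). Junction, keratin and regulator genes lie mostly right of 4-fold, macrophage and PI3K-AKT genes around 0, and neuronal and oligodendrocyte genes left of it.

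As shares of the UMIs, most leukocyte genes were within 4-fold of their neural level. Tumor spots held more UMIs (median 42416 against 10185), so an equal CPM is not an equal count per spot. Of 22 macrophage genes, 3 were at least 4-fold higher and 1 lower, beside 5.45% and 11.6% over all genes. Their median log2 fold was -0.01, which turns sign under TMM factors. The complement genes C1qa and C1qc stood at 422 and 412 CPM against 463 and 433. The 3 higher genes were arginase 1 (Arg1, 342 against 31.9 CPM), the endotoxin co-receptor Cd14 (138 against 17.7) and Ms4a7 (34.7 against 7.47). Of 12 microglial genes none was higher and 5 were lower, with Siglech at 1.14 against 30.8 CPM. None of 17 tested T and NK cell genes passed 4-fold in either direction (2 were lower with an epithelial limit of 10000 CPM). Their 18 measured members summed to 22.5 CPM against 40.8 in neural tissue. The 12 neutrophil genes summed to 96.1 CPM against 54.6 in neural tissue, with 1 at least 4-fold higher and none lower. The higher gene was S100a9, at 25 CPM (log2 fold 2.06, and 1.92 with interior spots). Ptprc (CD45) stood at 34.8 CPM against 29.7. Lyz2, a myeloid gene, stood at 4.11 against 2.59 CPM in these probe counts. A low value alone thus does not show whether the cells were absent.

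The myeloid receptor Csf1r, its ligands and genes listed with them were measured in the tumor as well. Of these 10 genes, 2 were at least 4-fold higher (1 with a pseudocount of 5 CPM) and 1 lower, with a median log2 fold of 0.59. Interleukin-34 (Il34), a ligand of Csf1r, stood at 65.2 CPM against 22.1, and ran from 0 to 230.1 CPM over the members with a median of 60.6. The other ligand, Csf1, stood at 21.5 against 14.3, Csf1r at 94.7 against 161, and the proteoglycan Sdc1 at 866 against 22.1. Of 23 cytokines and chemokines tested, 6 were at least 4-fold higher (3 with a pseudocount of 5 CPM) and 1 lower (3 with an epithelial limit of 10000 CPM). Cxcl16 stood at 332 CPM against 22.7, the STAT3-activating cytokine Lif at 172 against 2.72 and the neutrophil attractant Cxcl1 at 80.3 against 3.31. The lower gene was the alarmin Il33, at 12.8 against 152.

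Interferon and antigen presentation genes were moderately placed. Of 19 interferon genes tested, 6 were at least 4-fold higher and none lower, a count that was 2 with an epithelial limit of 10000 CPM and 3 with a pseudocount of 5 CPM. Ifitm3 stood at 573 CPM against 125 and Bst2 at 407 against 95.7. None of 17 antigen presentation genes passed 4-fold (1 under TMM factors), with B2m at 1393 against 743 CPM and the class II invariant chain Cd74 at 236 against 77.3.

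Neural genes were far lower in the tumor spots. The 10 smallest folds belonged to Nefm, Ndrg4, Pvalb, Scn4b, Sncb, Nefl, Calb1, Rph3a, Snap25 and Atp2b2, with the neurofilament gene Nefm at 5.11 CPM against 874 (log2 fold -7.28) and the Purkinje and interneuron gene Pvalb at 13 against 1640.2. All 14 oligodendrocyte genes and all 12 Purkinje and GABA genes were at least 4-fold lower, with Calb1 at 4.24 CPM against 487. So were 12 of 13 granule neuron genes and 13 of 14 synaptic genes, the exceptions being Fat2 (60 against 182 CPM, log2 fold -1.59) and Stx1a (31.5 against 9.5). Of 14 astrocyte genes, 9 were at least 4-fold lower, with Gfap at 500.5 CPM against 3579, and 2 higher, Sox9 and Gja1, which epithelia also express. Part of this contrast is fixed by choosing neural spots on Mbp and Snap25.

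Vessel genes were mostly within 4-fold of their neural level. Of 16 endothelial genes, 1 was at least 4-fold higher and 2 lower, shares near the 5.45% and 11.6% over all genes, with Cldn5 at 91.3 CPM against 69.2 and Flt1 at 107 against 75.4. The higher gene was Plvap, of fenestrated vessels, at 12.3 against 2.38 CPM. It fell short of 4-fold with a pseudocount of 5 CPM and with an epithelial limit of 10000 CPM. The lower genes were the barrier transporters Slco1a4 at 1.47 against 76.5 CPM, and Abcb1a at 8.12 against 38.9, the latter short of 4-fold under TMM factors.

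Metabolic genes differed by pathway. Of 28 low-oxygen and glycolysis genes listed, 23 were measured and tested, 6 of which were at least 4-fold higher and none lower, led by the collagen prolyl hydroxylase P4ha2 (379.7 CPM against 21.4), the lactate exporter Slc16a3 (188 against 9.84), Egln3 (258 against 20.4), which encodes an oxygen-sensing hydroxylase, and carbonic anhydrase Car9 (134 against 11.3). Vegfa stood at 268 against 71.6 CPM. None of the 14 measured oxidative phosphorylation genes passed 4-fold, and their median log2 fold was -0.70. Of 13 solute transport genes, 7 were at least 4-fold higher and 1 lower. Slc5a8, a sodium-coupled monocarboxylate transporter, stood at 204 CPM against 2.97, the water channel Aqp5 at 174 against 4.5, and the sodium pump subunit Atp1b1 at 351 against 2335.

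The change of levels toward the tumor was followed over 5 steps of the epithelial sum in the spots of 2000 or more UMIs: below 300 CPM (2407 spots), 300 to 1000 (390), 1000 to 2500 (181), 2500 to 5000 (189) and 5000 or more (735). The first step sets no limit on Mbp and Snap25, so it is wider than the 2015 neural spots. Several genes outside the rule followed the sum, with Anxa1 at 51.4, 436, 1257, 2701 and 5178 CPM over the 5 steps. Others did not: Mki67 was highest at the fourth step, at 174 CPM, and Vegfa fell from 189 CPM at the third step to 157 at the fourth. Krt14 did not follow to the end, at 13.5, 127, 521, 972 and 932 CPM, so its last 2 steps were about level. Macrophage genes were highest in the intermediate spots and lower in the tumor. The secreted phosphoprotein Spp1 went from 1305 to 10341 CPM at the third step and then to 1551, C1qa from 538 to 1976 and 424, and Arg1 from 48.3 to 1228 and 356. Type I collagen was highest at the fourth step, with Col1a1 at 438 CPM against 19 at the first and 158 at the last. The median UMIs per spot also differed along the steps, from 10037 to 9961, 17310, 25568 and 41700, and their part in these levels was not tested.

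**Figure D4:**
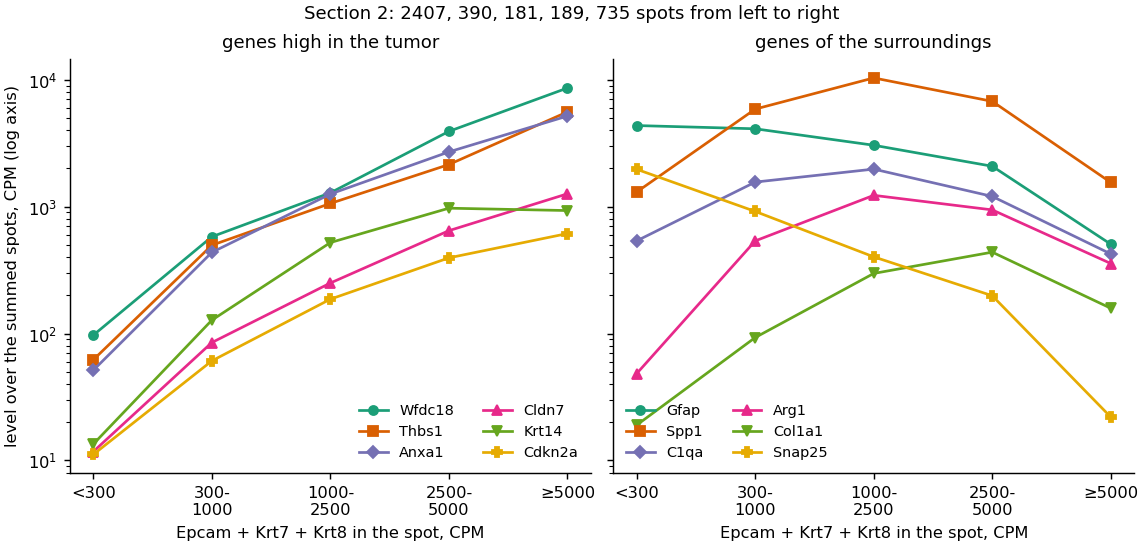
Level of 12 genes in CPM (log axis) over the summed spots of section 2 in 5 steps of the sum of Epcam, Krt7 and Krt8, with 2407, 390, 181, 189 and 735 spots. Genes high in the tumor (left) climb along the steps, except that Krt14 is about level over the last 2. Spp1, C1qa and Arg1 (right) are highest at 1000 to 2500 CPM, Col1a1 at 2500 to 5000 CPM, and Snap25 declines throughout.

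The members differed among themselves most in genes of glia, myeloid cells and milk. Variation was measured as the squared coefficient of variation of CPM over the 688 spots less the part that counting gives, and its median over the 2501 genes with a mean of at least 100 CPM was 0.0334. The 12 most variable genes were Csn3, Apod, Gpnmb, Ccl6, Gfap, Serpina3n, Trf, Hmox1, Mt3, Mbp, Atp1b2 and Spp1, from 9.61 for Csn3 to 1.87 for Spp1, and the same 12 led after each spot was thinned to 20000 UMIs. Of these, Apod, Gfap, Serpina3n, Trf, Mt3, Mbp and Atp1b2 are made by glia or oligodendrocytes, and Gpnmb, Ccl6, Hmox1 and Spp1 by myeloid cells among others. Csn3 was at 0 in 273 spots, had a median of 25.4 CPM and reached 5125.

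A gradient from the border inward was seen for several of these genes. Among spots 1, 2, 3, 4 and 5 or more steps inside the tumor (239, 184, 131, 76 and 58 spots), Gfap stood at 1095, 385, 169, 62.3 and 29 CPM. Genes that respond to low oxygen ran the other way. Egln3 stood at 128, 240.0, 318, 342 and 526 CPM, and Vegfa at 172, 241, 312, 376 and 452. Lactoferrin was highest within as well, with Ltf at 499.6, 605, 678, 955 and 1471 CPM. The basal keratins were highest at the border, with Krt17 at 813, 748, 719, 609 and 503 CPM and Krt14 at 1076 in the border spots and 781 in the deepest group. Of the myeloid genes, Gpnmb fell at each step, from 209 to 8.96 CPM. Spp1, Ccl6 and Hmox1 were also highest at the border but did not fall steadily inward, with Hmox1 at 195, 111, 121, 178 and 166 CPM. Mki67 varied little over the 5 groups, between 136 and 161 CPM. The median epithelial sum was 6702 CPM in the 239 border spots and 7902 CPM in the 449 interior spots, and that of Mbp and Snap25 was 208 and 95.2 CPM, so neural signal moved with depth too. Its part in the gradient was not tested.

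Between border and interior members, 29 of 2635 genes of at least 100 CPM were at least 2-fold higher at the border and 2 in the interior. The 2 were Csn3 (57.6 CPM at the border against 157) and Egln3 (128 against 319), followed by adrenomedullin (Adm, 56 against 104), which responds to low oxygen, and Vegfa. The border genes were led by Apod (285 against 44.3 CPM) and Gpnmb (209 against 36.8).

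Neighboring tumor spots resembled each other, and to different degrees by gene. Over the 683 members with at least 1 member neighbor, the Spearman rho between a spot and the mean of its member neighbors was 0.89 for Ltf, 0.88 for Gfap, 0.86 for Wfdc18 and 0.75 for Krt17, but 0.31 for Mki67 and 0.21 for Epcam. Adjacent spots share tissue, so these values describe patches and are not independent. Krt7 and Krt8, which the rule also used, had values of 0.50 and 0.52. Mki67 had few UMIs per spot and the rule chose the members partly on Epcam. Both can lower such a value, and their part was not tested. Across the 688 spots, the sum of Vegfa, Egln3, Ndrg1, Car9, Adm, Slc16a3 and P4ha2 went with the junction list (rho 0.35) and against the proliferation list (-0.42) and the basal keratins Krt5, Krt14, Krt17 and Krt6a (-0.34). Basal keratins went with proliferation (0.43), and the junction list went against the stromal matrix list (-0.64). Shares of a fixed total are not free of each other, and all these sums share the spots' totals. Among genes of at least 100 CPM outside the rule, Anxa1 (rho 0.57), S100a6 (0.56) and the phosphatase Dusp10 (0.53) followed the epithelial sum most closely, a description within the range that the rule cut from below.

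**Figure D5:**
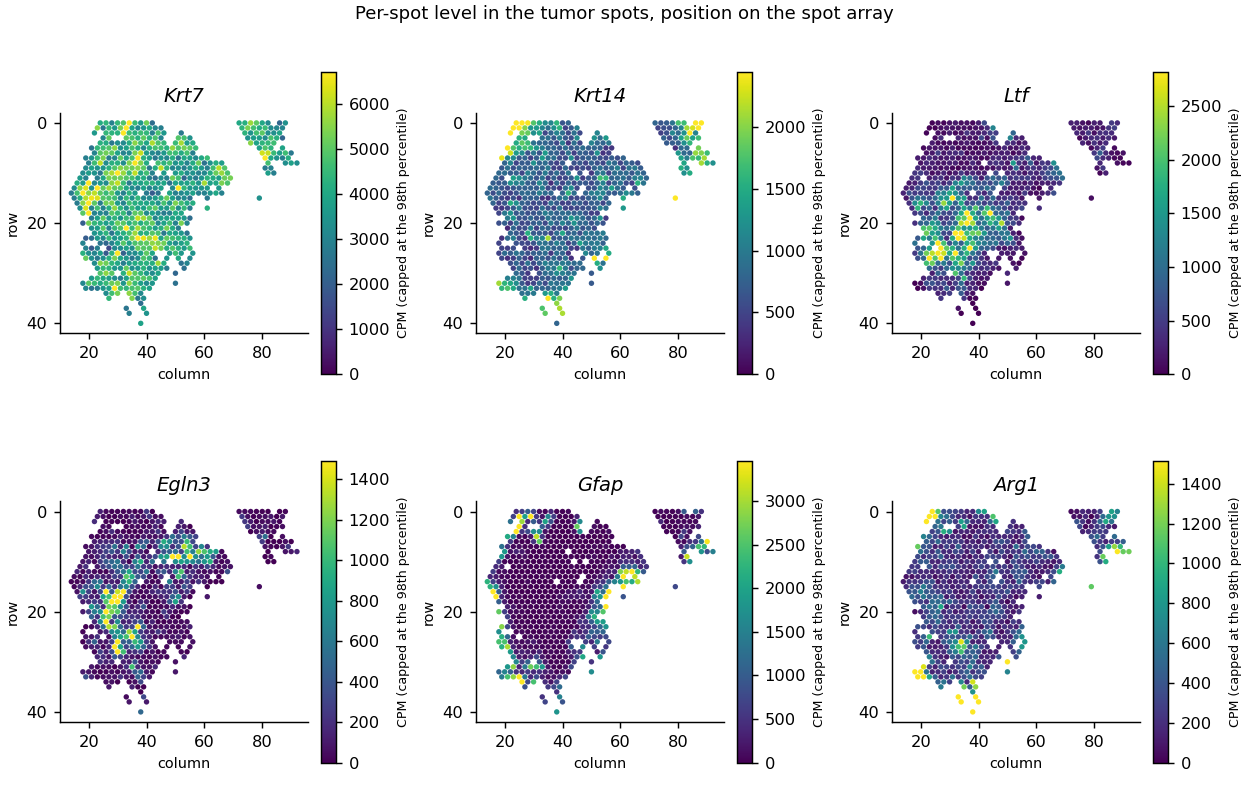
Level in CPM of Krt7, Krt14, Ltf, Egln3, Gfap and Arg1 in each of the 688 tumor spots by array column and row, with each color scale capped at the gene's 98th percentile. Krt14, Gfap and Arg1 are brightest in patches at the border, Ltf in the lower interior of the 623-spot piece and Egln3 in bands within it.

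The 2 main pieces were alike in most genes. Of 2669 genes at 100 CPM or more in either piece, 7 were at least 2-fold higher in the 623-spot piece and 1 in the 58-spot piece. Higher in the large piece were Egln3 (274 CPM against 59.7), the progenitor surface gene Prom1 (119 against 33.5), Csn3, Ltf (745 against 263), Igfbp5, Kit (406 against 193) and Klhdc7a. Higher in the small piece was Krt6a, at 303 CPM against 147, followed below 2-fold by Fat2, and Krt14 and Krt17 stood at 1384 and 1065 CPM there against 883 and 697. The 58 spots are neighbors in 1 section, so this difference has no replicate. Egln3, Ltf and Csn3 were also higher in interior than in border members, and Krt6a, Krt14 and Krt17 in border members. The part of depth in the difference between the pieces was not tested.

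Most of the same spots were reached without using epithelial genes, though with the same depth limit. Of the spots of section 2 with at least 20000 UMIs and less than 1000 CPM for Mbp and Snap25, 771 in all, 664 (86.1%) were members, and 765 held at least 300 CPM of the epithelial sum. Over these 771 spots Krt7 stood at 3866 CPM, Wfdc18 at 8317, Cdh1 at 410.0 and Cdkn2a at 586, against 4172, 8689.7, 431 and 614 over the members. The choice also took in 107 spots that were not members, with a median epithelial sum of 3333 CPM. The choroid plexus gene Ttr had a log2 fold over neural tissue of 2.32 in the 771 spots, against -3.58 in the members.

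The same choice in section 1 gave 689 spots of another character. Their epithelial sum had a median of 26.9 CPM, and of 19127 genes tested, 673 (3.52%) were at least 4-fold higher in the tumor of section 2 and 934 (4.88%) at least 4-fold lower. With 1 section on each side, organoid, mouse, position in the tumor and slide cannot be told apart in this comparison. The 8 largest differences toward section 2 among genes of at least 100 CPM were Wfdc18, Krt17, Krt7, Tfcp2l1, Cldn7, Gabrp, Krt14 and Cldn4. Wfdc18 stood at 8689.7 CPM against 1.04 in section 1, Krt7 at 4172 against 2.68, and Krt14 at 923 against 2.11. The tumor side was the 688 members, chosen by the epithelial sum, while the section 1 spots were chosen without it. The place of Krt7, a gene of the rule, was therefore partly set in advance. All 25 junction genes were at least 4-fold higher, with Cdh1 at 431 against 6.76 CPM.

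Genes of fibroblasts, plasma cells and antigen presentation were lower than in section 1. The 8 largest differences were Crabp1, Dpt, Col1a2, Sfrp2, Col3a1, Igkc, Cxcl13 and Lum. Col1a1 stood at 156 CPM in the epithelial tumor against 22032 in section 1, Col1a2 at 92.1 against 18410.3, and 20 of the 22 stromal matrix genes were at least 4-fold lower. Crabp1, a retinoid-binding protein, had no UMI in the tumor and 41300 in section 1, at least 10718-fold lower against a floor of 3 counts over the summed spots. The class II gene Cd74 stood at 236 against 13163 CPM, and 13 of 17 antigen presentation genes were at least 4-fold lower, as were 14 of 22 macrophage genes and 16 of 18 T and NK cell genes. Vim stood at 958 against 4239 and Snai1 at 21.4 against 95.9.

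Proliferation genes stood close in the 2 regions, while several receptor and cell cycle inhibitor genes did not. None of 28 proliferation genes passed 4-fold in either direction, with Mki67 at 151 CPM against 163, and Pik3ca stood at 118 against 115. Il34 stood at 65.2 CPM against 67.9, while its receptor Csf1r stood at 94.7 against 407. Erbb3 stood at 126 against 3.12 CPM and Erbb2 at 52.1 against 16.3, whereas Egfr stood at 26 against 46.2. Cdkn2a stood at 614 CPM against 4.53 and Trp53 at 13.1 against 109. The transporter Slc5a8 stood at 204 against 0.468 CPM, and Arg1 at 342 against 90.9.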

How the data were processed

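Spatial transcriptomes of 2 fixed cerebellar sections, which the labels place in 1 genotype group as replicates 1 and 2, were deposited as UMI counts per probe-targeted gene and spot, which the authors made with Space Ranger 2.1.1 on mm10 according to the submitters' processing notes. The annotation and probe set version are not given in the sources used here. The deposited counts were neither normalized nor filtered further here, except that 22 rows that share 11 gene symbols were left out of the comparisons and that spots outside tissue were left out. Counting error was the only error available.

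Spots were grouped by the thresholds given in the report, counts were summed over each group and divided by the group's total (CPM), and the log2 fold was taken on CPM + 0.5 for genes with at least 20 UMIs over both groups. A gene beyond 4-fold was counted as higher or lower. Exact Poisson 95% intervals cover counting error only. No test was made and no doublet caller was run. The members and the gene lists were chosen with earlier results of these data known. Named genes were the 15 largest and 10 smallest folds among genes of at least 100 CPM, the 10 highest counts, up to 4 highest and up to 2 lowest members and defining members of each list, the 12 most variable genes, the 8 largest differences to section 1 in each direction, and the 3 that followed the epithelial sum most closely. Other list members, and the genes named for depth within the tumor or for the 2 pieces, were chosen after their values were seen. Some genes of the lists are counted but not reported here by name.

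The fold and interval calculations were tested on simulated data. Alternatives were TMM factors, mean or median of per-spot CPM, a pseudocount of 5 CPM, no filter or a filter of 200 UMIs, epithelial limits of 3000 and 10000 CPM, a depth limit of 10000 UMIs for tumor or for neural spots, interior spots, the largest piece, distant neural spots, a fold of 2 and spots chosen without epithelial genes. Promoter windows were those of RefSeq, build GRCm38.p6, matched by symbol. Python 3.11.15, numpy 2.4.6, scipy 1.17.1, pandas 2.3.3, matplotlib 3.10.9, R 4.3.3 and edgeR 4.0.16 (TMM factors only) were used.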

Additional observations from a re-analysis of the deposited data

How the results depend on the processing

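Between tumor and neural tissue, the count of genes at least 4-fold higher ran from 712 with a pseudocount of 5 CPM to 1325 with TMM factors, around 1038. The count of lower genes ran from 1456 with a pseudocount of 5 CPM to 2951 with an epithelial limit of 10000 CPM, around 2211. With a fold of 2, 2604 genes were higher and 4541 lower. TMM factors moved the share of higher genes among those beyond 4-fold from 31.9% to 40.8%. Of 277 named genes, 147 were beyond 4-fold, and 111 of these remained so, in the same direction, under all 12 settings that were applied to them, while 36 fell short or turned in at least 1. The choroid plexus gene Ttr turned from a log2 fold of -3.58 to 2.32 with spots chosen without epithelial genes, and the Purkinje gene Car8 from -4.77 to 5.25 by the median of per-spot CPM, since its median was 0 CPM over the neural spots. By that median the log2 fold was 0 for Sprr1a, Siglech, Erbb4, Nrg1, Zeb1, Sox10 and Wnt7a, among others. Their summed neural levels thus need not be those of a typical spot. Against section 1, 663 to 727 genes were higher and 847 to 935 lower. No paired analysis was possible because both regions compared lie in 1 section, the other section held no member and no test was made, and no replicate could be left out for the same reason. A gene with few UMIs has a fold set largely by the pseudocount.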

Other observations

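Further lists, chosen with earlier results of these data known, were described for the same 688 tumor spots against neural tissue, with no test. Over all genes, 5.45% were at least 4-fold higher and 11.6% lower, and 1 gene of a list here is near those shares. Of 18 Wnt and Notch genes, 5 were at least 4-fold higher (3 with a pseudocount of 5 CPM) and 1 lower. The Wnt ligands Wnt7b and Wnt10b stood at 193 and 38.9 CPM against 46.9 and 2.67, the Notch ligand Jag1 at 59.4 against 13.6 and the Notch target Hes1 at 75.8 against 14.1. The log2 fold of Wnt7b, 2.03, fell short of 4-fold under several settings (1.81 by the mean of per-spot CPM). The lower gene was Wnt7a, at 4.08 against 46.4 CPM. None of 12 NRF2 and metallothionein genes passed 4-fold, although 1 was higher under TMM factors, 2 were lower with interior spots and 3 were lower with an epithelial limit of 10000 CPM, with Mt1 at 1521 CPM against 5275, Mt2 at 1049 against 3204 and the master factor Nfe2l2 at 309 against 86.4. None of 14 lipid and cholesterol genes tested passed it either, with Scd2, a fatty acid desaturase also used in myelin, at 406 CPM against 1244. Of 14 amino acid stress genes tested, Trib3 was at least 4-fold higher (22.7 against 3.14 CPM), though not with a pseudocount of 5 CPM. The serine synthesis gene Psat1 stood at 40.2 against 165 CPM, a log2 fold of -2.02 that fell short of 4-fold under 6 settings (-1.73 with TMM factors).

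Of other cell types, 1 of 12 mural genes was at least 4-fold higher, Acta2, a share near the 5.45% over all genes. With an epithelial limit of 10000 CPM the log2 fold of Acta2 was 1.80, short of 4-fold. The pericyte gene Rgs5 stood at 44.8 CPM against 40. None of 13 B and plasma cell genes was higher and 1 was lower, a share near the 11.6% over all genes. The lower gene was Ighm, at 5.25 CPM against 23.7. Its log2 fold of -2.07 fell short with TMM factors (-1.79) and with interior spots (-1.95), among others. The kappa light chain Igkc stood at 3.51 against 9.38. None of 10 dendritic cell genes was higher (1 under TMM factors) and 3 were lower. The choroid plexus gene Ttr stood at 14.8 CPM against 183, and Folr1 of the same epithelium at 1.24 against 2.5. None of 4 erythrocyte genes tested passed 4-fold.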
